A study of Homo sapiens with 3 samples.

Results

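The genes described here encode the WNT ligands, their Frizzled (FZD) receptors and families of secreted antagonists of WNT signalling. They comprise 19 WNT genes, 10 FZD genes, 5 genes of the secreted Frizzled-related family (SFRP1, SFRP2, SFRP4, SFRP5 and FRZB) and 4 Dickkopf genes (DKK1 to DKK4). These 38 genes are a small part of the 20163 protein-coding genes examined. A ChIP-seq peak was assigned to a gene when it lay within 5 kb of any annotated transcription start site (TSS) of that gene, or when it overlapped the gene body. By this rule the 38 genes held 51 of the 21639 EZH2 peaks and 11 of the 19039 PHF13 peaks.

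The series profiled wild-type PANC-1 cells, an established human pancreatic cancer line, with 1 library for an antibody against PHF13, 1 for an antibody against EZH2 and 1 input library of chromatin without immunoprecipitation. No group was treated or engineered, and the cells were grown in the same medium and fixed with the same sequence of crosslinkers. Peaks were called for each antibody against the input. With a single library per antibody there was no replicate error, so no p-value is given for any comparison, and differences are described beside the same quantity over all genes or all peaks.

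WNT proteins are secreted, lipid-modified signals that bind the cysteine-rich domain of Frizzled receptors at the cell surface. In the canonical branch, Frizzled acts with an LRP co-receptor to stabilise β-catenin, while SFRP proteins bind WNTs directly and most DKK proteins act on the LRP co-receptors. EZH2 is the catalytic subunit of Polycomb repressive complex 2, which methylates histone H3 at lysine 27 and is known for occupying CpG-rich starts of developmental genes. PHF13 carries a PHD finger that recognises histone H3 methylated at lysine 4.

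The sequences below show the kind of DNA on which the strongest EZH2 peaks of these genes lay. Each is the 200 bases before the canonical start on GRCh37 (hg19), written in the direction of transcription, with every CpG dinucleotide in capitals. WNT3A, SFRP5 and WNT9B had the highest EZH2 significance of the 38 genes, and their windows lay wholly inside a peak. FZD4 and FZD5 are shown for contrast, as receptor genes with no peak in either list.
WNT3A upstream, chr1:228194499-228194698, plus strand: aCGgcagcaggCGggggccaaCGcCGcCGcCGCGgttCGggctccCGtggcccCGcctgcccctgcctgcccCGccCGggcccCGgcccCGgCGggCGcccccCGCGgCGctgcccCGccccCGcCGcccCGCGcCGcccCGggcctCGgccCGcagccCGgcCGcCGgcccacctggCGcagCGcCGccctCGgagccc
SFRP5 upstream, chr10:99531757-99531956, minus strand: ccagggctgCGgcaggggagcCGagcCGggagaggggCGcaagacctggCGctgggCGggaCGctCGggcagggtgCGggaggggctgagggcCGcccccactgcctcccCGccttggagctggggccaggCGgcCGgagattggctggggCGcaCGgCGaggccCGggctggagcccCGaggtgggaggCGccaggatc
WNT9B upstream, chr17:44928749-44928948, plus strand: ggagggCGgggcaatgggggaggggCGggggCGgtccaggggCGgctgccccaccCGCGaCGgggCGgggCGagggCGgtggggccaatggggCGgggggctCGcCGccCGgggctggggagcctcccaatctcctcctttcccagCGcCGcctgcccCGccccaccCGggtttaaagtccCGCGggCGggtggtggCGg
FZD4 upstream, chr11:86666438-86666637, minus strand: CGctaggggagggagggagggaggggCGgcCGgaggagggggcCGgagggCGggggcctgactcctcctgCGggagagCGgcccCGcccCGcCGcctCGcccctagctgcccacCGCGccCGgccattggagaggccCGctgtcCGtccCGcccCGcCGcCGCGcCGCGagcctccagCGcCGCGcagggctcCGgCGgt
FZD5 upstream, chr2:208634631-208634830, minus strand: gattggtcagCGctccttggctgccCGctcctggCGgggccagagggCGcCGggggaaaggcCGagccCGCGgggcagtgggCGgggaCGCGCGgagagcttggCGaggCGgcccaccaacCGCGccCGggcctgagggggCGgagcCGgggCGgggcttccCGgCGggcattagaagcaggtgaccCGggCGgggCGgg
The window held 35 CpGs at WNT3A, 19 at SFRP5 and 22 at WNT9B, against 28 at FZD4 and 25 at FZD5. CpG number in this window did not separate these 3 covered starts from these 2 uncovered ones. FZD4 and FZD5 are examples only, since the 9 genes with no peak in either list held from 3 CpGs (WNT8A and DKK4) to 37 (FZD6).

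EZH2 peaks were found at 27 of the 38 genes (71.1%), whereas 30.0% of all protein-coding genes had one. PHF13 peaks were found at 8 of the 38 (21.1%), beside 31.2% of all genes. Both lists had a peak at 6 genes (15.8%; 12.6% of all genes), namely WNT3, WNT3A, WNT5B, WNT10A, SFRP4 and FRZB. A further 21 genes had EZH2 peaks alone, WNT7B and DKK1 had PHF13 peaks alone, and 9 genes had neither. When gene bodies were left out and only peaks within 5 kb of a TSS were counted, EZH2 remained near 26 genes (68.4%; 23.6% of all genes) and PHF13 near 4 (10.5%; 21.0% of all genes). Those 4 were WNT3, WNT7B, WNT10A and DKK1.

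**Figure D1:**
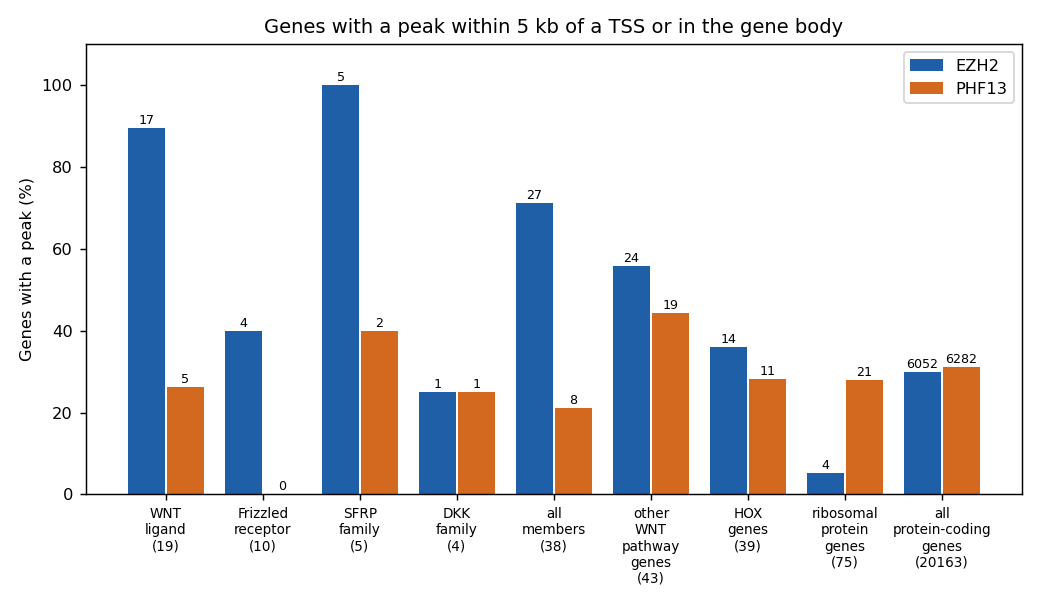
Share of genes with a peak (vertical axis, percent) for EZH2 and PHF13 in each group of genes, with the number of genes in a group in brackets and the number with a peak above each bar. EZH2 bars are tallest for the WNT ligands (17 of 19) and the SFRP family (5 of 5), and PHF13 has no bar at the Frizzled receptors (0 of 10).

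The families differed in how many of their genes held a peak. Among the WNT ligands, 17 of 19 had EZH2 and 5 had PHF13. Of the Frizzled receptors, 4 of 10 had EZH2 and 0 had PHF13. The SFRP family had EZH2 at 5 of 5 genes and PHF13 at 2, while the DKK family had each at 1 of 4. The Frizzled genes are short, with a median gene length of 5740 bp against 26657 bp for the WNT genes, so the gene-body part of the rule covered less sequence at the receptors. Within 5 kb of a TSS, a count that leaves out gene bodies, EZH2 was near 16 of 19 WNT genes and 4 of 10 FZD genes. This count still grows with the number and spread of annotated starts, which ran from 1 to 10 in WNT genes and 1 to 6 in FZD genes. WNT5B, with 10 starts, was counted through a start far upstream of its canonical one. The part of gene length and start number in the difference was not tested.

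EZH2 peaks lay near most of the canonical starts. Within 2.5 kb of the canonical TSS, 25 of the 38 genes (65.8%) had EZH2 peak sequence, beside 15.8% of all protein-coding genes, and 14 (36.8%) had over 1 kb of it, beside 6.96%. For PHF13 the same window held a peak at 1 gene, DKK1 (2.63%), beside 12.1% of all genes. The rule itself favours peaks near starts, so peaks were set beside those that the same rule assigned to any protein-coding gene. Of the 51 EZH2 peaks, 16 (31.4%) spanned a protein-coding TSS, beside 20.0% of the 10734 EZH2 peaks assigned to any gene. Among the stronger EZH2 peaks (−log10 q of at least 5) the shares were close, with 10 of 22 (45.5%) beside 43.2% of 4196. Of the 11 PHF13 peaks 1 spanned a protein-coding TSS (9.09%), beside 10.2% of 9457. The start it spanned was that of FBXL14, inside the annotated WNT5B gene. No PHF13 peak spanned a TSS of the gene described here. As a description, the median distance from peak to nearest own TSS was 487 bp for EZH2 and 16803 bp for PHF13.

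**Figure D2:**
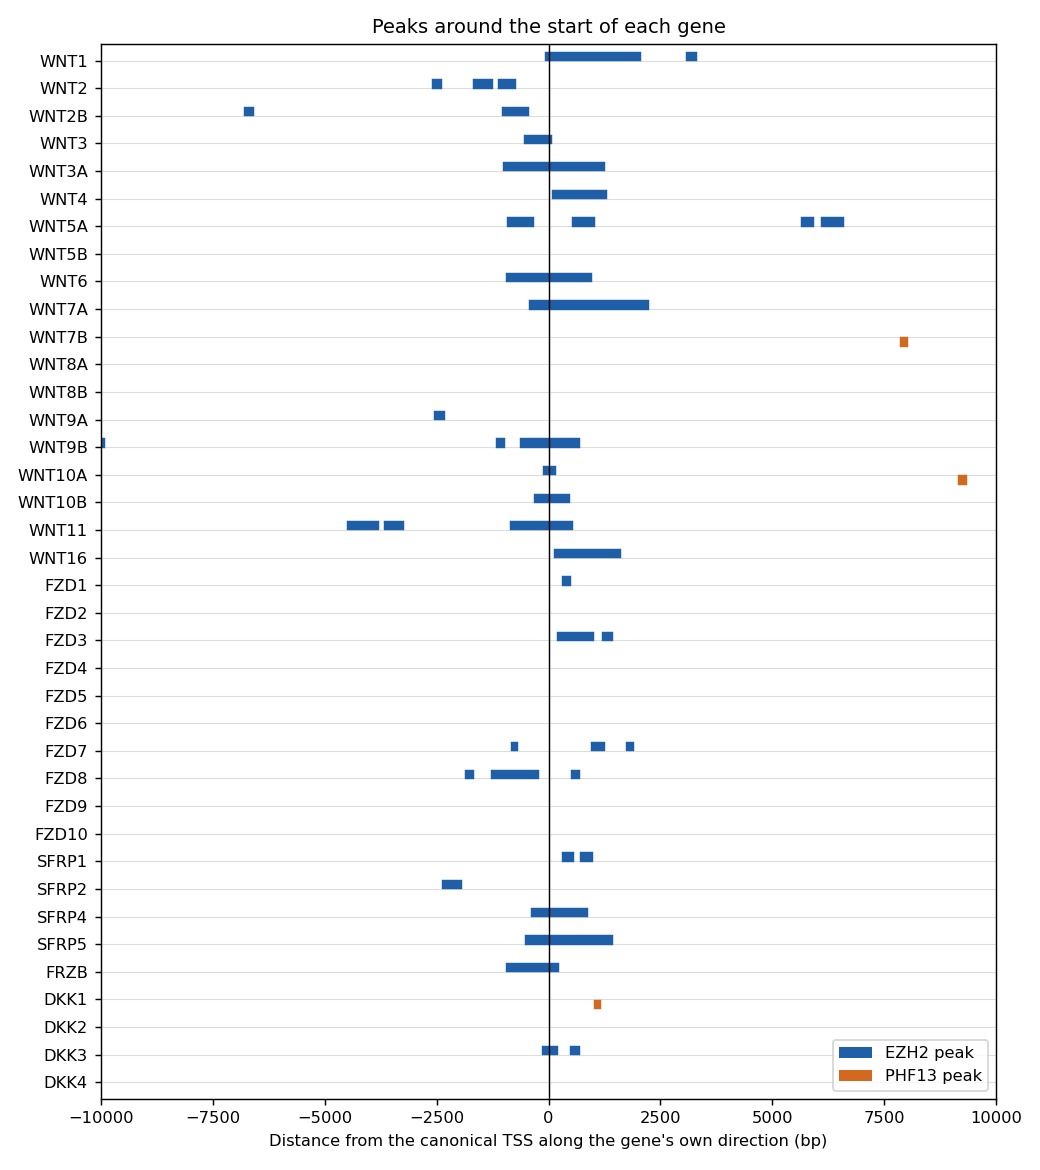
EZH2 (blue) and PHF13 (orange) peaks within 10000 bp of the canonical TSS of each gene, drawn to scale along the direction of transcription, with negative distances upstream. EZH2 peaks gather around 0 in most WNT and SFRP genes, and only 3 PHF13 peaks, at WNT7B, WNT10A and DKK1, fall inside the plotted range.

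EZH2 peaks at these genes had a median width of 373 bp, against 234 bp for the EZH2 peaks assigned to any gene and 216 bp in the whole list. Of the 51, 12 (23.5%) were over 1 kb wide, against 13.2% of the assigned peaks and 7.67% of all EZH2 peaks. The median depended on the significance limit. Once weaker peaks were left out (−log10 q under 5), the 22 at these genes had a median of 1100 bp, against 574 bp for the assigned peaks and 338 bp for the list. The 12 wide peaks lay at 12 different genes (31.6% of the 38, beside 7.35% of all genes): WNT1, WNT3A, WNT4, WNT6, WNT7A, WNT9B, WNT11, WNT16, FZD8, SFRP4, SFRP5 and FRZB. Together the 51 peaks covered 33021 bp, and the 11 PHF13 peaks covered 2083 bp, none of them wider than 347 bp. Peaks over 1 kb were rare in the whole PHF13 list as well (0.315%). The height above background did not set the EZH2 peaks apart in the same way, since their median fold enrichment was 3.10 (range 1.86 to 5.18) and that of the whole list was 3.13.

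The strongest EZH2 peak of all 38 genes was at WNT3A, a ligand of the canonical β-catenin branch. It was 2262 bp wide (chr1:228193685-228195946), spanned the TSS with its summit in a coding exon 191 bp downstream, and had a −log10 q, the significance after correction for multiple testing, of 33.9. Its summit held 141 fragments over a local background of 37.3, a fold enrichment of 3.71 (95% exact Poisson interval 3.13 to 4.37, counting error only, background held fixed, as for all intervals here). The peak had rank 639 of 21639 by significance and rank 103 by width. WNT3A also had 3 weaker EZH2 peaks in its introns, with −log10 q from 2.12 to 4.97.

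WNT7A, WNT9B and WNT6 followed among the ligands. The WNT7A peak was the widest of the 38 genes at 2664 bp (chr3:13919351-13922014), with rank 22 by width in the whole list. Its summit held 129 fragments over 44.1, a fold of 2.88 (2.41 to 3.42) with a −log10 q of 21.0. WNT9B had 79 fragments over 17.9 in a 1324 bp peak at its canonical start, a fold of 4.23 (3.36 to 5.26) and a −log10 q of 22.2. At WNT6 the 1900 bp peak held 84 fragments over 22.2, with a fold of 3.67 (2.94 to 4.53) and a −log10 q of 19.6. The fold intervals of WNT9B, WNT6 and WNT3A overlapped, so counting error alone did not separate their heights.

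The other ligands with a wide peak had lower significance. WNT11, a ligand best known from β-catenin-independent signalling, had 91 fragments over 32.3 in a 1399 bp peak (fold 2.76, 2.23 to 3.38, −log10 q 13.4), and a separate 692 bp peak over an upstream start with a −log10 q of 12.4. WNT1, the founding member of the family, had 81 fragments over 28.4 in a 2107 bp peak that spanned its start (fold 2.79, 2.22 to 3.46, −log10 q 12.1). WNT16 had 39 fragments over 8.98 in 1482 bp (fold 4.01, 2.88 to 5.44, −log10 q 10.1), and WNT4 had 42 over 11.1 in 1199 bp (fold 3.56, 2.59 to 4.79, −log10 q 9.13). The WNT16 and WNT4 peaks began 114 bp and 89 bp from the nearest TSS of their genes.

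Narrower EZH2 peaks marked 9 further ligand genes. WNT2 had 3 upstream peaks, all within 2.5 kb of a TSS, with −log10 q from 2.71 to 7.41. WNT5A, which signals mainly outside the β-catenin branch, had 4 peaks at 2 groups of starts, of 266 to 571 bp, with −log10 q from 2.35 to 4.51. WNT2B had peaks of 198 and 569 bp with −log10 q of 4.35 and 4.21. WNT10B had a 794 bp peak over its start with a −log10 q of 4.35. The weakest was at WNT9A, where a 216 bp peak 2344 bp from the TSS held 17 fragments over 6.13, with a −log10 q of 1.66. The WNT8B peak (−log10 q 7.32) lay in a coding exon 19220 bp from the gene's TSS and nearer to a start of SEC31B, so its assignment to WNT8B rests on the gene body. WNT8A was the ligand gene with no peak in either list, and WNT7B was without EZH2, whose nearest peak lay 50068 bp away.

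**Figure D3:**
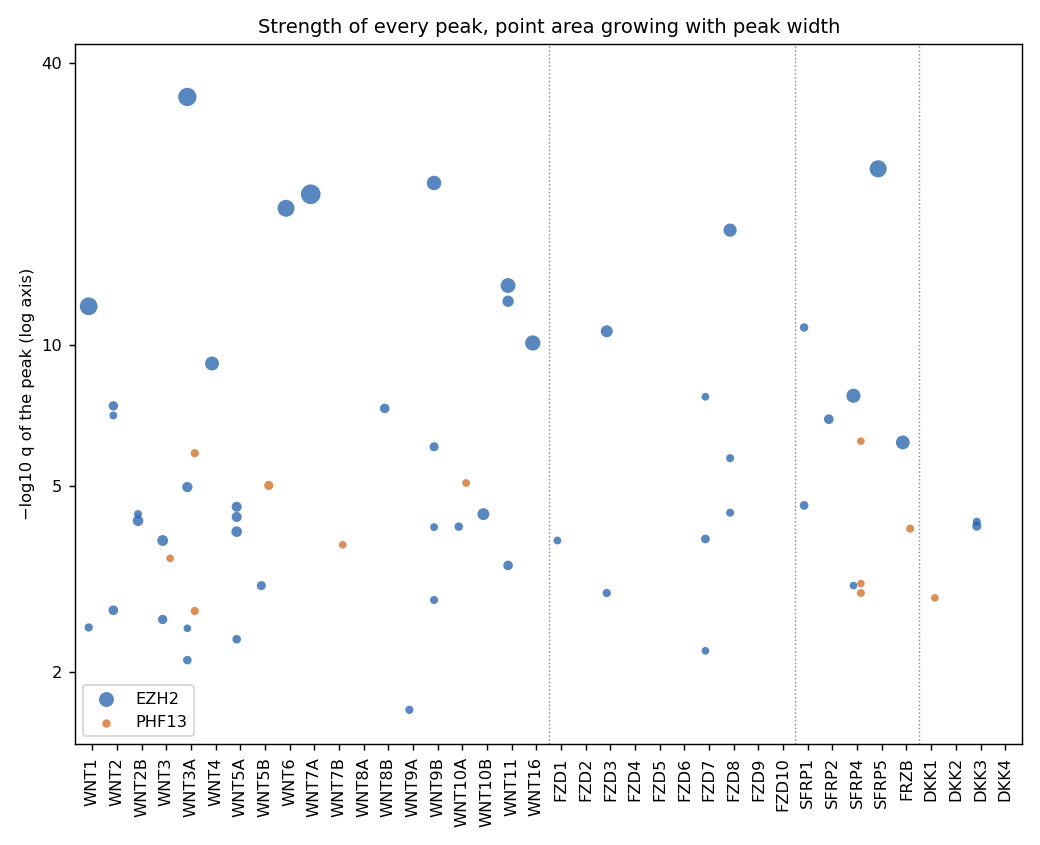
Significance of each of the 62 peaks (−log10 q, log axis) by gene, with the area of a point growing with peak width and dotted lines between the WNT, FZD, SFRP and DKK families. The large blue points of WNT3A (33.9), SFRP5 (23.8) and WNT9B (22.2) stand highest, and the PHF13 points lie between 2.70 and 6.23.

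No peak was assigned to both genes of a neighbouring pair of ligands. WNT1 and WNT10B lie head to head with 6586 bp between them, and each had its own EZH2 peak at its start. WNT6 and WNT10A, 6618 bp apart on chromosome 2 in the same orientation, differed in strength, with a −log10 q of 19.6 in a 1900 bp peak at WNT6 and 4.09 in a 256 bp peak at WNT10A. WNT3A and WNT9A lie 59065 bp apart and had −log10 q of 33.9 and 1.66. No peak in either list was wider than 5692 bp, so under the 5 kb rule this pair could not share one. WNT3 and WNT9B are separated by 46 bp between their outermost annotated ends, and their highest values were 3.82 and 22.2.

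Among the Frizzled receptors, FZD8 had the strongest EZH2 peak. It was 1037 bp wide, ended 240 bp upstream of the TSS and held 57 fragments over 11.7, a fold of 4.58 (3.49 to 5.91) with a −log10 q of 17.6. FZD8 also had a peak of 192 bp in an untranslated exon and one of 195 bp upstream. FZD3, a receptor known from axon guidance and planar cell polarity, had 38 fragments over 8.18 in an 803 bp peak just inside the gene (fold 4.25, 3.04 to 5.79, −log10 q 10.7) and a weaker peak beside it. FZD7 had 3 short peaks of 152 to 289 bp, with −log10 q from 2.22 to 7.75, and FZD1 had a single 171 bp peak with a −log10 q of 3.82.

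The other 6 receptor genes, FZD2, FZD4, FZD5, FZD6, FZD9 and FZD10, had no peak of either antibody. Their nearest EZH2 peak lay between 29806 bp (FZD4) and 123255 bp (FZD5) from a TSS. The nearest PHF13 peak was 7456 bp from the FZD4 TSS, outside the 5 kb limit of the rule. The CpG ratio of the promoter (observed over expected CpG, in 1000 bp around the canonical TSS) ran from 0.728 to 0.903 in these 6 and overlapped with the range of 0.819 to 0.963 in FZD1, FZD3, FZD7 and FZD8.

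All 5 genes of the SFRP family had an EZH2 peak within 2.5 kb of the canonical start. SFRP5 had the second-highest significance of the 38 genes, with a 1948 bp peak over the TSS, 88 fragments over 20.8, a fold of 4.09 (3.29 to 5.03) and a −log10 q of 23.8. SFRP1 had the highest fold, 5.18 (3.55 to 7.33), from 30 fragments over 4.98 in a 250 bp peak with a −log10 q of 10.9. SFRP4 had 35 fragments over 8.90 in a 1239 bp peak over its canonical start (fold 3.64, 2.56 to 5.02, −log10 q 7.79). FRZB, also named SFRP3, had 36 over 10.8 in 1163 bp (fold 3.14, 2.22 to 4.31, −log10 q 6.19). At SFRP2 the 422 bp peak lay 1953 bp upstream, with a −log10 q of 6.94. The fold intervals of all 5 strongest peaks overlapped.

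Of the Dickkopf genes, DKK3, the divergent member of the family, had EZH2 peaks of 201 and 348 bp at its canonical start, with −log10 q of 4.19 and 4.10. DKK1, a secreted inhibitor that binds LRP5 and LRP6, had no EZH2 peak within 100576 bp of a TSS and 1 PHF13 peak. DKK2 and DKK4 had neither, and their nearest EZH2 peaks were 648170 bp and 479539 bp away.

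**Figure D4:**
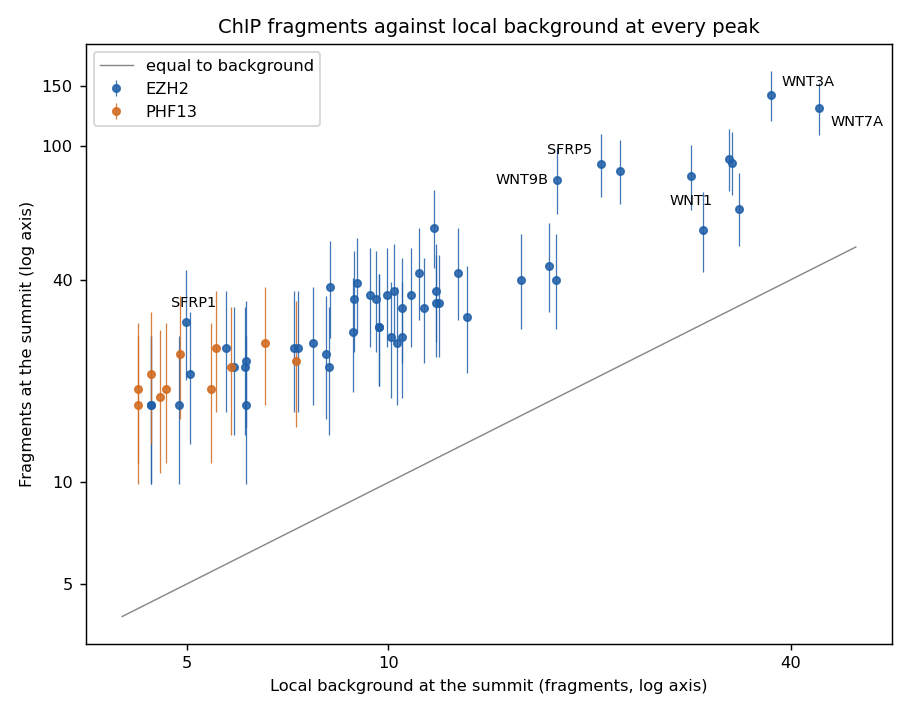
Fragments at the summit of each of the 62 peaks against the local background there, both in fragments on log axes, with 95% exact Poisson intervals and a line where both are equal. EZH2 peaks reach 141 fragments over 37.3 at WNT3A and 129 over 44.1 at WNT7A, while all 11 PHF13 peaks hold 17 to 26 fragments.

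The local background, the fragment number that the peak caller set for chance at that place, moved with the EZH2 peaks. It had a median of 10.2 fragments at the 51 peaks and 7.28 over the whole list, whose lowest value was 4.42, and it was highest at WNT7A (44.1) and WNT3A (37.3). The sequence moved with them as well. The median GC content over 500 bp at the summit was 66.6%, against 49.6% in the list, and 36 of 51 peaks (70.6%) had a CpG ratio of at least 0.6 there, against 20.7%. Background, GC content and CpG ratio were set beside the whole list only. They were not computed over the EZH2 peaks assigned to any gene, so nearness to genes was not held equal. The part of GC content and background in the peak calls was not tested. Where the background was between 36 and 44 fragments, the EZH2 peak with the fewest fragments in the list held 65 at its summit, and between 9 and 11 it held 21. At the lowest background the fewest were 13 in either list, so an uncalled start is one where no call was made at this depth.

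Within 2.5 kb of the canonical TSS, EZH2 was present at 21 of the 30 genes with a promoter CpG ratio of at least 0.6 (70.0%), beside 18.4% of all protein-coding genes above that ratio. Among the 8 genes under it, 4 had EZH2 there, beside 10.7% of all genes below it. Those 4 were WNT10A, WNT10B, WNT16 and FRZB, with ratios from 0.482 to 0.557, and the 4 genes with lower ratios, WNT5B, WNT8A, WNT8B and DKK4, had none there. The 9 genes without any peak had a median ratio of 0.770, and the 21 with EZH2 alone had 0.819.

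PHF13 peaks at these genes were few, and 7 of 11 lay over 5 kb from any TSS of the gene they were assigned to. That share was not computed over all assigned PHF13 peaks. Their median width of 172 bp was near that of PHF13 peaks assigned to any gene (186 bp) and of the whole list (188 bp). The median number of summit fragments was 21 here and in the list. Of the 11 peaks, 10 lay in introns and 1, at WNT10A, in a coding exon. Places were not counted over all assigned PHF13 peaks. The 11 peaks were 144 to 347 bp wide and held 17 to 26 fragments at the summit, with folds from 2.90 to 4.25. Those with a −log10 q of at least 5 were at SFRP4 (6.23), WNT3A (5.87), WNT10A (5.07) and WNT5B (5.01). The sequences of 4 PHF13 peaks are given on GRCh37 because they carry the shared interval with EZH2, the AP-1 sites and the peak nearest a canonical start. Capitals mark the 110 bases shared with an EZH2 peak in the first WNT3A peak, and an AP-1 site in the second WNT3A peak and in the WNT7B peak. The DKK1 peak has no capitals.
WNT3A PHF13 peak, chr1:228211502-228211721, plus strand: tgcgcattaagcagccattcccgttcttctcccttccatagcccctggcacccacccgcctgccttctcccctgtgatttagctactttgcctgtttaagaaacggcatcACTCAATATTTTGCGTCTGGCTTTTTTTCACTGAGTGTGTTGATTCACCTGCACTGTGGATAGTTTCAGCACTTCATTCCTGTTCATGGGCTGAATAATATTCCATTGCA
WNT3A PHF13 peak, chr1:228231209-228231435, plus strand: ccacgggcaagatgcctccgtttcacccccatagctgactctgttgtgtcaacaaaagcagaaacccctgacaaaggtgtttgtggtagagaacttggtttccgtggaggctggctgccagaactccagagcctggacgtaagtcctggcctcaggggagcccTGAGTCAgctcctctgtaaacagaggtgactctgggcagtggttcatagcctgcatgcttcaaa
WNT7B PHF13 peak, chr22:46365044-46365187, plus strand: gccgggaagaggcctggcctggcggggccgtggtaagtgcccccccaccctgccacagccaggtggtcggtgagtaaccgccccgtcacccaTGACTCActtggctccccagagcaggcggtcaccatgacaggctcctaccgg
DKK1 PHF13 peak, chr10:54075051-54075198, plus strand: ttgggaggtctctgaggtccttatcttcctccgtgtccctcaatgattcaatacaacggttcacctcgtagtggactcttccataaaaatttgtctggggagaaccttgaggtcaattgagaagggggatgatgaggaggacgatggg
The AP-1 site was sought as TGACTCA or TGAGTCA, which are each other's reverse complement, within 200 bp at the summit. It was present in 2 of 11 peaks (18.2%), beside 11.2% of all PHF13 peaks, and 2 peaks are too few to set against that share. Among the 51 EZH2 peaks 1 had it (1.96%), at WNT5A, beside 2.31% of all EZH2 peaks.

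At WNT3A the second PHF13 peak, 36510 bp inside the gene, held 25 fragments over 5.52 (fold 3.99, 2.64 to 5.82). The first held 19 over 5.44 (fold 3.10, 1.93 to 4.76, −log10 q 2.70). This first peak was the only one of the 11 to overlap an EZH2 peak, a share that was not computed over all PHF13 peaks. The EZH2 peak, at chr1:228211612-228211877, held 22 fragments over 8.14 (fold 2.52, 1.62 to 3.75, −log10 q 2.12), and the 2 summits lay 63 bp apart. Both peaks of the pair were thus among the weaker ones, and the strong EZH2 peak at the WNT3A start had no PHF13 peak within 15555 bp.

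In the other genes with both antibodies the peaks lay apart. WNT10A had EZH2 over its start (28 fragments over 8.86, fold 2.94, 1.99 to 4.20, −log10 q 4.09) and PHF13 8997 bp away in a coding exon (26 over 6.54, fold 3.58, 2.39 to 5.19). FRZB had PHF13 in an intron 17455 bp from its EZH2 peak (19 over 4.23, fold 3.83, 2.38 to 5.87, −log10 q 4.05). That background of 4.23 was the lowest value in the PHF13 list. At WNT3 the EZH2 peak over the canonical start held 29 fragments over 9.70 (fold 2.80, 1.91 to 3.98), another in an intron had a −log10 q of 2.59, and the PHF13 peak (19 over 4.65, fold 3.54, 2.20 to 5.43, −log10 q 3.50) lay 211 bp from the start of a shorter transcript, with its summit 46657 bp downstream of the canonical one.

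WNT5B and SFRP4 owe their PHF13 assignments to long annotated gene bodies. The WNT5B peak (21 fragments over 4.42, fold 4.06, 2.58 to 6.11) lay 19834 bp from any TSS of WNT5B and overlapped a start of FBXL14, a gene for an F-box protein, so it was a promoter peak of that gene by position. The EZH2 peak of WNT5B (17 over 4.42, fold 3.32, 2.01 to 5.21, −log10 q 3.06) spanned an upstream alternative start. Its background was the lowest value in the EZH2 list. The 3 PHF13 peaks of SFRP4 lay 11342 to 53808 bp from its nearest TSS and upstream of its canonical start, inside the span of longer transcripts. The strongest held 24 fragments over 4.88 (fold 4.25, 2.78 to 6.24), and 2 of the 3 were nearer to a start of EPDR1. Over the 38 genes, the nearest protein-coding start was that of the assigned gene for 8 of 11 PHF13 peaks and 50 of 51 EZH2 peaks. These shares were not computed over all assigned peaks of either list.

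The genes with PHF13 alone had modest peaks. WNT7B had 22 fragments over 5.82 in a 144 bp intron peak 3408 bp from its nearest TSS (fold 3.37, 2.17 to 5.03, −log10 q 3.74). DKK1 had 23 over 7.27 in a 148 bp intron peak (fold 2.90, 1.88 to 4.29, −log10 q 2.88), 39 bp from an alternative start and 1091 bp from the canonical one at its summit. The DKK1 peak was the only PHF13 peak within 2.5 kb of a canonical start.

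Other genes of the WNT pathway, 43 in all, showed EZH2 at 24 (55.8%) and PHF13 at 19 (44.2%), with both at 10 (23.3%). The shares of all protein-coding genes were 30.0%, 31.2% and 12.6%. EZH2 was found at 8 of 9 genes for the R-spondins, their LGR receptors and the ligases that remove Frizzled, including LGR6 (−log10 q 34.6), RSPO3 (27.5), LGR5 (23.2) and RSPO1 (20.5). In the cytoplasmic part, which includes β-catenin (CTNNB1), APC and the Dishevelled genes, EZH2 was at 1 of 11 genes, AXIN2, and PHF13 at 6. The nuclear genes had EZH2 at 5 of 7, with LEF1 at 25.8, and the strongest PHF13 peak of the pathway was at TCF7L2, with a −log10 q of 29.3. Pathway genes have a median length of 69100 bp against 22574 bp for the 38 genes. Within 5 kb of a TSS, EZH2 was at 44.2% of the pathway genes and PHF13 at 23.3%, beside 23.6% and 21.0% of all genes. For comparison, 14 of 39 HOX genes (35.9%), known Polycomb targets in many cell types, had EZH2 under the full rule, beside 30.0% of all genes. Of 75 ribosomal protein genes, 4 (5.33%) had EZH2. PHF13 was at 11 HOX genes (28.2%) and 21 ribosomal protein genes (28.0%), beside 31.2% of all genes.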

How the data were processed

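ChIP-seq of PHF13 and EZH2 and an input library came from PANC-1 cells, 1 library each. Per the labels, the submitters' processing notes name Trim Galore 0.4.1, Bowtie2 2.4.1, Picard, MACS2 2.2.7.1 and deepTools 3.5.0, on hg19. The deposited peak lists give fold enrichment at the summit (a ratio with a pseudocount of 1), the p-value and q-value as −log10, a score, and positions; the score was not used. The methods describe broad peaks for EZH2, whereas the deposited list is in narrow-peak format. The weakest deposited −log10 q was 1.30 for PHF13, a looser limit than the methods state for that antibody, and 1.31 for EZH2. Read totals are not in the lists, so depth is unknown beyond the summit fragments.

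Fold and p were solved for whole fragments and local background at each summit (relative tolerance 0.0001), a step tested on simulated data. Intervals are 95% exact Poisson and cover counting error only. Genes were those of GENCODE 44 on GRCh37, sequences were read from that genome, and positions are 1-based. Copy number of each summit was taken from 24-mers over 100 bp. Named in full were genes with both antibodies, an EZH2 peak over 1 kb, the 10 highest −log10 q, or PHF13 −log10 q of at least 5. The members and lists were chosen with earlier results of these data known. Python with numpy 2.4.6, scipy 1.17.1 and pandas 2.3.3 was used.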

Additional observations from a re-analysis of the deposited data

How the results depend on the processing

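The number of genes with an EZH2 peak was 27 and ranged from 18, at a −log10 q of at least 5, to 27 under the alternatives tried. At that limit PHF13 was at 4 genes, both at 2, and the median EZH2 width was 1100 bp, beside 16.4%, 11.0% and 2.80% of all genes with EZH2, PHF13 or both. Without gene bodies PHF13 was at 4 genes and both at 2, beside 21.0% and 5.33% of all genes. No other alternative moved a count by over 1.5 times. These were 1 kb from a TSS, 1 start per gene and a −log10 q of at least 3 (26, 7 and 6). At that q limit the shares of all genes were 24.8%, 21.9% and 7.59%. Chosen after seeing the data were peaks whose nearest protein-coding start was the member's own (26, 7 and 5), without a count over all genes. A limit to summits of median 24-mer copy number 1 removed no peak, so it could not move a count. The single overlapping pair, at WNT3A, also met a limit of 50% of the shorter peak and of 500 bp between summits. No paired analysis was possible because each antibody has 1 library and no test was made. Absence of a peak means only that no call was made at this depth.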
